A study of Mus musculus with 18 samples.

Results

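The 10 genes described here encode the glucose transporter Glut1 (Slc2a1) and 9 enzymes of glycolysis (Hk1, Hk2, Pfkl, Pfkp, Aldoa, Tpi1, Pgk1, Pkm and Ldha). They were chosen by name, together with all array probes that the platform annotation assigns to 1 of them only, which gave 23 probes and 10 of the 18147 mouse genes tested. Every one of these probes had a value in all 18 lymphomas, so no member was lost to the filter on missing values, and Hk2, Pfkl and Slc2a1 rest on 1 probe each.

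The samples were 18 lymphomas from mice with the triple genotype Atm-/-, mTerc-/-, p53-/-, which lack a kinase that signals DNA breaks, the RNA template of telomerase and the p53 transcription factor. Total RNA of each was compared on 2-colour arrays, with a dye swap, with a common reference, thymus RNA of healthy mice heterozygous for p53 at 3 weeks of age. All 18 lymphomas carry the same genotype, and neither knock-out tissue without a tumour nor a lymphoma of another genotype was measured, so tumour and genotype cannot be told apart. The labels do not say where in the body the lymphomas grew, or whether each came from a mouse of its own, so a p-value here reflects no more than how these lymphomas differ among themselves. Values are log2 ratios, likely of lymphoma over thymus: the numerator is not stated, and this direction was taken because it places the deleted genes Atm and Terc below thymus. Terc was below thymus in 18 of 18 lymphomas (-1.47 ± 0.58, SD) and Atm in 17 of 18 (-0.65 ± 0.53), the exception being lymphoma 15, where Atm stood at 0.56. Whether the Atm probes lie in the deleted part is not given. Transcript levels of p53 were not analysed here. The base of the deposited logarithm is not stated either and was taken as 10, so that every fold change depends on that choice while the tests do not. The lowest correlation between any 2 arrays over all probes was 0.07, so no array ran against the others. Lymphomas 7, 14 and 12 were least like the others, with mean correlations of 0.17, 0.24 and 0.29. For the rest the mean lay between 0.50 and 0.58.

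Glycolysis splits glucose into pyruvate in the cytosol and yields ATP without oxygen. Glut1 brings glucose in, hexokinases trap it as glucose 6-phosphate, phosphofructokinase makes the committed step, and lactate dehydrogenase A turns pyruvate into lactate, which regenerates the NAD+ that the pathway consumes. Thymocytes and activated T cells raise this pathway when they grow, and many tumours keep it high even where oxygen is present. Several of its genes are known targets of the transcription factors HIF-1, which acts when oxygen is low, and Myc.

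In the lymphomas, 9 of the 10 genes were higher than in thymus (limma on the ratios, Benjamini-Hochberg adjusted p below 0.05 over all genes) and none was lower, where 29.9% of all genes tested were higher and 27.9% lower. Pfkl, Pkm, Tpi1, Pgk1 and Ldha were at least 2-fold higher, 5 of 10 against 4.3% of all genes. Since the direction is only likely, the shares for the other direction are given too, and 10.9% of all genes were at least 2-fold lower. Among the members' probes, 21 of 23 were higher and none lower, where 29.6% of all probes were higher and 25.9% lower. The median of the members' mean log2 ratios was 0.89, and that over all genes was 0.05. Pfkl, Tpi1, Pkm and Ldha lay above thymus in 18 of 18 lymphomas, as did 4.92% of the genes with complete values, while 3.94% lay below thymus in 18 of 18. The members were listed for their function with earlier results of these data known, so these shares describe them and are no test of the group.

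The DNA around the start site is shown here for 4 members, all among the 7 with the motif printed in capitals. Windows of Pfkl, Pfkp and Tpi1, which hold none, are not shown. A core of sites that HIF-1 is known to bind, ACGTG or its reverse complement CACGT, is in capitals. The windows come from RefSeq, build GRCm38.p6, and run 5′ to 3′ from 250 bases before to 50 bases after an annotated start.
Slc2a1, chr4:119108495-119108794, plus strand: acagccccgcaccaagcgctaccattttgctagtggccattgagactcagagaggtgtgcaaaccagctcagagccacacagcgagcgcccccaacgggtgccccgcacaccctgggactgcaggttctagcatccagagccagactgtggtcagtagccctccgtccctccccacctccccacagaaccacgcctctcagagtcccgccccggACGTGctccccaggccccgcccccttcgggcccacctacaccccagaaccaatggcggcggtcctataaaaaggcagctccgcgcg
Hk2, chr6:82774405-82774704, minus strand: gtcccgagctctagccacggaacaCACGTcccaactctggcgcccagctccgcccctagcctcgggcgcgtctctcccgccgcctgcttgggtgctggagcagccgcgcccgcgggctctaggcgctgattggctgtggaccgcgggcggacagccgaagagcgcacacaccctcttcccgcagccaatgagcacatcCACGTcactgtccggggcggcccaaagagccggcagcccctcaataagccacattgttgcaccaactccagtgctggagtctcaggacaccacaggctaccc
Pgk1, chrX:106186850-106187149, plus strand: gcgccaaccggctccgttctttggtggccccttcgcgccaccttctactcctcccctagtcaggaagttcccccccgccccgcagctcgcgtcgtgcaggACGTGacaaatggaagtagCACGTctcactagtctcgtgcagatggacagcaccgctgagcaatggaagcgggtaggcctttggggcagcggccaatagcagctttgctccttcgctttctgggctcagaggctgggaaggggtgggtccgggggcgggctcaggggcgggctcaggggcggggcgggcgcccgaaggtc
Ldha, chr7:46845554-46845853, plus strand: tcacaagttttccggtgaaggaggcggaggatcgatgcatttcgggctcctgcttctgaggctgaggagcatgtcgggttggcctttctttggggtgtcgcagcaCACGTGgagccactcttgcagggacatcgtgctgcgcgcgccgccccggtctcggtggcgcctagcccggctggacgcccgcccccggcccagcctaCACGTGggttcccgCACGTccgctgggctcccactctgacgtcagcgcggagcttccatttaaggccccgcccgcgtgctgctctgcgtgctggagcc
Of the 10 member genes, 7 held ACGTG on either strand in at least 1 of their windows (Aldoa, Hk1, Hk2, Ldha, Pgk1, Pkm and Slc2a1), and 21.8% of all 27025 genes with a window did. Ldha held it at 5 places, of which 4 are the forward and reverse reading of 2 copies of the palindrome CACGTG, an E-box that Myc and other factors are known to bind. No other member window held CACGTG, which 8.09% of genes have. The third motif searched, GCGTG, differs from ACGTG only in its first base. It was found in 5 members (Hk1, Ldha, Pfkl, Pfkp and Slc2a1) and in 35.2% of all genes. ACGTG contains a CpG, and the member windows held between 0 and 30 CpG. Among all windows with at least 15 CpG, a limit set after seeing these counts, 28.4% held ACGTG, as did 8 of 12 member windows. Without that limit it was 8 of 15 member windows, against 19.6% of all 32851 windows. The 10 members had 15 windows and the 27025 genes 32851, so a member had on average more places for a match. Overlapping Aldoa windows hold the same site, which is thus counted 2 times among the 8. A match says only that these letters are present in the window.

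Slc2a1, which encodes the main glucose carrier of activated lymphocytes, had the widest spread of the members. Its log2 ratio ran from -0.73 in lymphoma 13 over a median of 0.48 to 4.09 in lymphoma 15. It lay above thymus in 12 of 18 lymphomas, with 6 below 0 and the next highest, lymphoma 14, at 1.997. A single lymphoma thus reached a 17-fold ratio while most lay within 2-fold of thymus. The mean was 0.65 ± 1.15 (SD, n = 18), 1.57-fold, and passed narrowly (limma adjusted p = 0.0338). The call for the log2 ratio of Slc2a1 was lost when lymphoma 1, 2, 7 or 14 was left out (limma adjusted p = 0.0640, 0.0529, 0.0560 and 0.0604), and without lymphoma 15 it stayed at 0.45 (0.0425).

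Hexokinases phosphorylate glucose as it enters. Hk2, an isozyme that is raised in many tumours, ran from -0.97 in lymphoma 13 over a median of 0.84 to 3.05 in lymphoma 15, and 14 of 18 lymphomas lay above thymus. Its mean was 0.77 ± 0.86 (SD, n = 18) or 1.71-fold (limma adjusted p = 0.00192). Hk1, the isozyme of most tissues, had a narrower range, from -0.12 in lymphoma 12 over 0.60 to 1.51 in lymphoma 15, and was above thymus in 16 of 18. It rose 1.47-fold (0.56 ± 0.44, limma adjusted p = 0.000152). The 6 Hk1 probes gave means between 0.22 and 0.89, with correlations between probes across lymphomas from -0.03 to 0.99, so that the size of the Hk1 change depends on the probe. Within a lymphoma, the Hk2 ratio exceeded the Hk1 ratio by 0.22 ± 0.85 on the log2 scale (95% interval from -0.21 to 0.64, Hk2 higher in 11 of 18), a difference that did not pass (permutation test, adjusted p = 0.344 over 7 pairs of related genes).

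Phosphofructokinase commits the sugar to glycolysis, and the ratios of its isozymes parted. Pfkl, the liver-type subunit, ran from 0.61 in lymphoma 12 over a median of 1.75 to 3.11 in lymphoma 15. All lymphomas lay above thymus, and with a mean of 1.77 ± 0.68 (SD, n = 18), 3.41-fold, it had the highest mean of the members (limma adjusted p = 1.95e-08). Pfkp, the platelet-type subunit, ran from -0.68 in lymphoma 3 over 0.29 to 2.69 in lymphoma 15, with 10 lymphomas above and 8 below thymus. The log2 ratio of Pfkp had a mean of 0.45 ± 0.90 that did not pass (limma adjusted p = 0.0640), but it did when lymphoma 3, 9, 12, 14 or 17 was left out (0.0378, 0.0456, 0.0485, 0.0449 and 0.0478). The 3 Pfkp probes moved together across lymphomas (r from 0.81 to 0.93) but 1 of them, with a mean of 0.73 and a value above 0 in 18 of 18, passed alone (limma adjusted p = 0.000852 over all probes), and the other 2 had means of 0.36 and 0.25. Pfkm, the muscle-type subunit and no member, stood at 1.12 ± 0.49. Within lymphomas the Pfkl ratio exceeded that of Pfkp by 1.32 ± 0.75 (95% interval 0.95 to 1.70, higher in 18 of 18) and that of Pfkm by 0.66 ± 0.57 (0.37 to 0.94, higher in 15 of 18). Permutation tests gave an adjusted p = 3.5e-05, from the smallest p that 100000 resamples can give, and 0.000770. The Pfkp ratio lay below that of Pfkm in 15 of 18 (-0.67 ± 0.75, adjusted p = 0.00394). With 1 probe per gene, the difference Pfkp minus Pfkm was -0.38 (permutation test, adjusted p = 0.0337). Pfkl and Pfkm rest on 1 probe each, and these tests cover the spread between lymphomas, not that between probes.

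Aldolase A, triose phosphate isomerase and phosphoglycerate kinase carry the sugar through the middle of the pathway. Aldoa, which splits the 6-carbon sugar, ran from -0.17 in lymphoma 9 over 0.49 to 1.39 in lymphoma 15, above thymus in 17 of 18. It rose 1.49-fold (0.58 ± 0.44, limma adjusted p = 0.000114), and its 2 probes gave nearly equal means (0.59 and 0.57, r = 0.98). Aldoc, the brain-type aldolase, stood at 0.86 ± 0.63, and the difference Aldoa minus Aldoc was -0.28 ± 0.67 (95% interval from -0.62 to 0.05, permutation test, adjusted p = 0.130). Tpi1, which interconverts the 3-carbon sugars, ran from 0.24 in lymphoma 12 over 1.35 to 2.69 in lymphoma 15 with no lymphoma below thymus. Its mean of 1.38 ± 0.52 was 2.60-fold (limma adjusted p = 2.06e-08). The Tpi1 probes gave means of 1.87 and 0.89 and correlated at 0.49, so they agreed in direction and less in size.

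Pgk1, the first enzyme of the pathway to yield ATP and an X-linked gene, ran from -0.21 in lymphoma 17 over a median of 1.25 to 2.88 in lymphoma 15. Lymphoma 17 was the only one below thymus. It rose 2.34-fold (1.23 ± 0.64, limma adjusted p = 8.60e-07), and its 2 probes tracked each other across lymphomas (r = 0.997, means of 1.26 and 1.19). Pkm, pyruvate kinase, whose M1 and M2 isoforms come from 1 gene by alternative splicing, ran from 0.24 in lymphoma 12 over 1.71 to 3.54 in lymphoma 15, above thymus in 18 of 18. It rose 3.35-fold (1.74 ± 0.80, limma adjusted p = 1.33e-07). Pkm probes differed in size, with means of 2.47 ± 0.74, 1.97 ± 0.62 and 0.80 ± 1.25, and the last ran from -1.84 to 3.70. No source used here says which isoform each probe detects, so no isoform is named.

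Ldha, which makes lactate, ran from 0.06 in lymphoma 12 over 0.97 to 2.13 in lymphoma 15, with all lymphomas above thymus. It rose 2-fold (1.0 ± 0.48, SD, n = 18, limma adjusted p = 4.34e-07), with probe means of 0.87 and 1.13. Ldhb, the subunit that favours the reverse reaction in oxidative tissues, went the other way: it fell by 1.55 on the log2 scale (SD 1.12, 2.92-fold lower) and was below thymus in 17 of 18 (limma adjusted p = 2.66e-05). The Ldha ratio exceeded the Ldhb ratio by 2.55 ± 1.14 within lymphomas (95% interval 1.98 to 3.11, higher in 17 of 18, permutation test, adjusted p = 3.5e-05). Mouse glycolytic genes have processed copies elsewhere in the genome, and whether these probes also bind them was not tested. Ordered by mean ratio the members ran Pfkl, Pkm, Tpi1, Pgk1, Ldha, Hk2, Slc2a1, Aldoa, Hk1 and Pfkp, and none of the 9 neighbours in that order differed beyond their spread (permutation tests, lowest adjusted p = 0.0780).

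**Figure D1:**
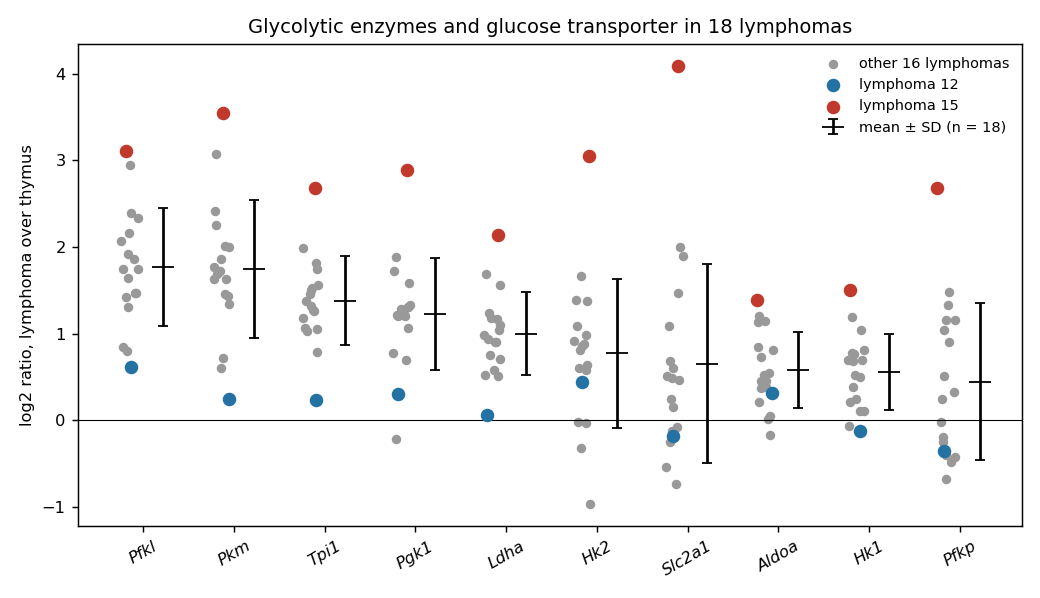
Log2 ratio of lymphoma over thymus (y axis) for the 10 genes (x axis), ordered by mean. Each point is 1 of 18 lymphomas, lymphoma 15 in red and lymphoma 12 in blue, and the bars give the mean ± SD. Lymphoma 15 is the highest point for every gene, from 1.39 for Aldoa to 4.09 for Slc2a1.

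Lymphoma 15 was the highest of the 18 for all 10 members, a pattern seen in the data and not asked beforehand. It was the highest for 5.83% of the 17001 genes with complete values, and the lowest for 4.09%, the share that would apply if the ratios ran the other way. With every array scaled to the same spread, 9 of the 10 members were still highest there, the exception being Pfkl (lymphoma 1), against 4.53% of all genes. The gap to the next lymphoma was 2.09 on the log2 scale for Slc2a1, 1.38 for Hk2, 1.20 for Pfkp and 1.002 for Pgk1, and between 0.16 and 0.69 for the other 6. The mean of the members was 2.71 in lymphoma 15, 1.71 in lymphoma 1 and 1.46 in lymphoma 2, and the median lymphoma other than 15 stood at 0.93. The members are measured on the same RNA and are not independent of each other, and lymphoma 15 is a single sample. It is also the lymphoma in which Atm was above thymus, and the list means of macrophage markers (-3.42, 2 of 9 lower over all lymphomas) and of adipocyte markers (-4.49, 7 of 7 lower) were lowest there. In the other 17 lymphomas they ran from -3.41 to 2.77 and from -4.36 to 0.79. Their part in the result was not tested. No gene of the 8 marker lists for other cell types, T cells and dividing cells had its highest value in lymphoma 15.

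At the other end, lymphoma 12 was the lowest for 5 of the 10 members (Hk1, Pfkl, Tpi1, Pkm and Ldha), where 4.86% of all genes had their lowest and 4.52% their highest value there. Its member mean was 0.16 and no member exceeded 1 on the log2 scale. This array had the narrowest values (SD over all probes 0.58, against 0.91 to 1.30 on the others), and it is the only lymphoma in which the mean of 8 thymic epithelium markers lay above thymus (0.89, against -5.03 to -1.45 in the others). With arrays scaled to the same spread the count was again 5, against 10.4% of all genes. The part of tissue content and of array spread in the low values of lymphoma 12 was not tested. Lymphoma 13 was lowest for Hk2 and Slc2a1, and lymphomas 3, 9 and 17 for Pfkp, Aldoa and Pgk1.

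**Figure D2:**
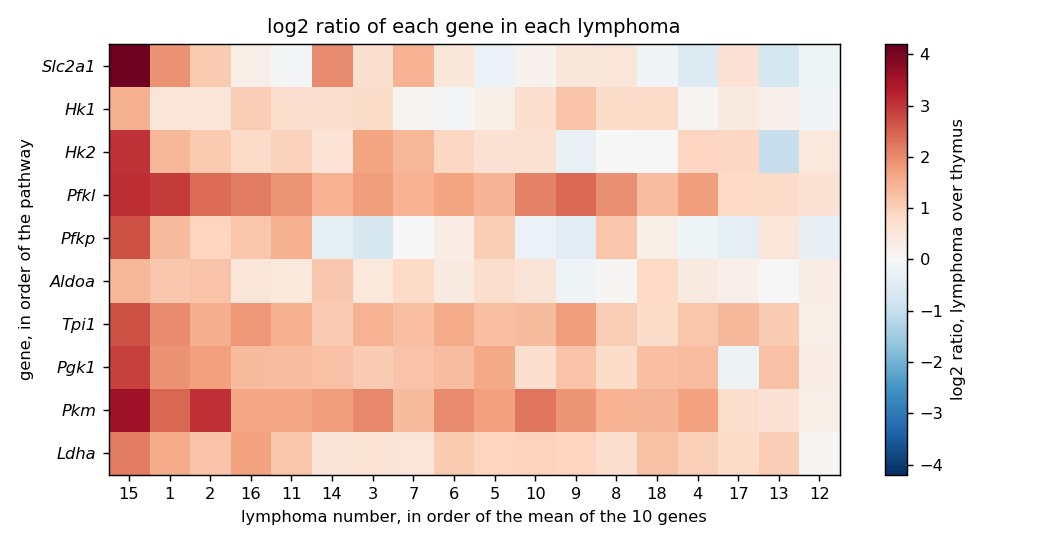
Log2 ratio, lymphoma over thymus (colour, red higher and blue lower), of the 10 genes (rows, from glucose uptake to lactate) in the 18 lymphomas (columns, ordered by the mean of the 10 genes). The columns run from lymphoma 15 with a mean of 2.71 to lymphoma 12 with 0.16, and 6 genes (Slc2a1, Hk1, Hk2, Pfkp, Aldoa and Pgk1) change sign between lymphomas.

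The members rose and fell together across lymphomas, to a degree that rests in part on lymphoma 15. All 45 pairs of members had a positive Pearson correlation over the 18 lymphomas, with a median of 0.62 and a range of 0.20 to 0.88, and 32 passed (permutation tests, Benjamini-Hochberg over 45 pairs). With Spearman's rho the median was 0.42 and 8 pairs passed, all of which also passed with Pearson's r. Without lymphoma 15 the median r was 0.40, 41 pairs were positive and 6 passed. The median r was 0.33 without lymphomas 12 and 15, and 0.28 when each pair was taken without the 2 lymphomas farthest from the median of its first gene. All lymphomas share 1 reference, and its own values enter every ratio. No share over pairs of all genes is set beside these counts, so they describe the members alone.

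Pfkl and Pkm, at the committed and the final ATP-yielding step, were the closest pair. Their correlation was 0.88 (Spearman's rho 0.79, adjusted p = 0.000675 and 0.00660 in permutation tests, n = 18), 0.84 without the 2 lymphomas farthest from the median of Pfkl and 0.84 without lymphoma 15. Among 17000 other genes Pkm ranked first for Pfkl, and Pfkl second for Pkm, after Egln3, a hypoxia-induced prolyl hydroxylase (r = 0.88). Pfkl and Tpi1 gave r = 0.83 and rho = 0.76 (adjusted p = 0.000675 and 0.00660) and held at 0.71 without the 2 farthest lymphomas. Pgk1 and Ldha gave r = 0.74 and rho = 0.76 (adjusted p = 0.00423 and 0.00660, 0.70 without the 2 farthest). For Pfkp the closest members were Ldha (r = 0.77, rho = 0.68, adjusted p = 0.00203 and 0.0210) and Pgk1 (r = 0.72, rho = 0.70, adjusted p = 0.00395 and 0.0201).

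Slc2a1 and Hk2, the steps of uptake and trapping, correlated at 0.74 (permutation test, adjusted p = 0.00431), but the rank correlation of 0.55 did not pass (0.0742). Their r was 0.49 without lymphoma 15 and 0.35 without the 2 lymphomas farthest from the median of Hk2. The relation thus rests in part on those lymphomas. For Slc2a1 and Ldha, the ends of the pathway, r was 0.42 and rho 0.00 (adjusted p = 0.0995 and 1), and r turned to -0.04 without lymphoma 15. Hk1 and Hk2 gave 0.27 with all lymphomas and -0.14 without lymphoma 15. The plot of pairwise correlations shows all pairs with and without that lymphoma. Some pairs also rest on lymphoma 12, the array with the narrowest values. Tpi1 and Pgk1 went from 0.68 to 0.47 without lymphoma 15 and to 0.28 without lymphomas 12 and 15. Pkm and Ldha went from 0.65 to 0.48 and 0.26.

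**Figure D3:**
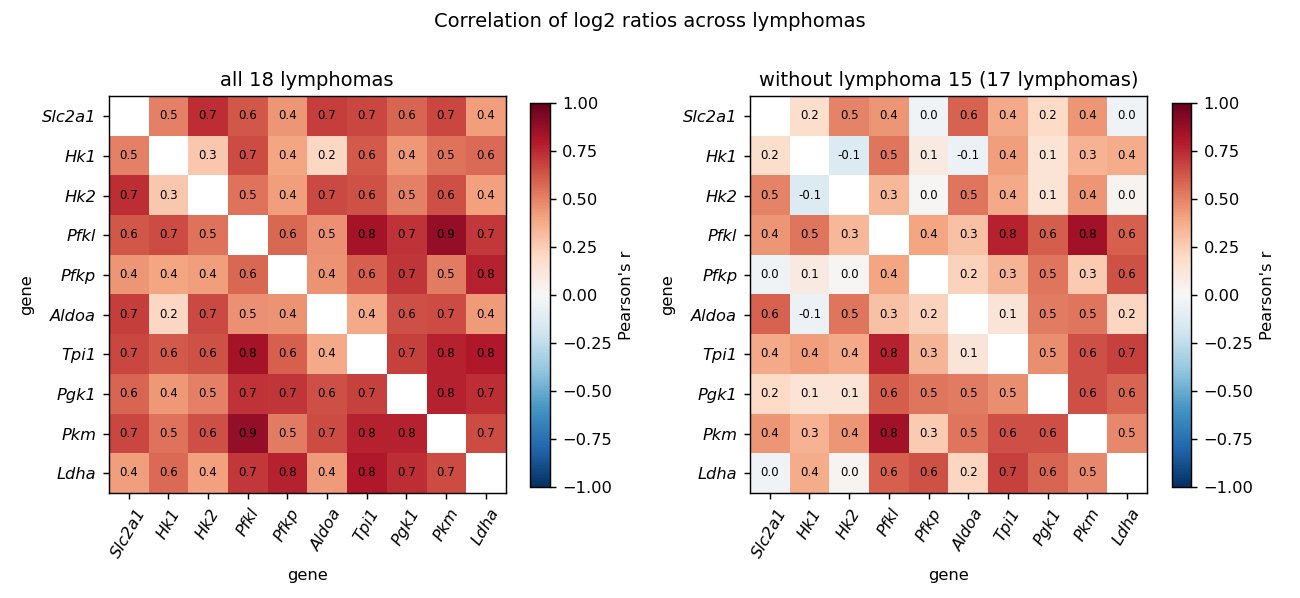
Pearson's r between the log2 ratios of each pair of the 10 genes (both axes) over all 18 lymphomas (left) and over the 17 without lymphoma 15 (right), with red positive and blue negative. The median over the 45 pairs is 0.62 on the left and 0.40 on the right, and Pfkl with Pkm stays at 0.84.

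The genes that HIF-1 and low oxygen are known to induce were taken as a list of 18 that holds no member. Of these, 8 were higher and 4 lower than in thymus, and 6 did not pass. Egln3 (2.04 ± 0.89, above thymus in 18 of 18), the oxidoreductase gene Ero1a (1.25 ± 1.23), Car12 (1.22 ± 0.79) and Car9 (0.96 ± 0.59), 2 membrane carbonic anhydrases, and P4ha1 (0.98 ± 1.001), a collagen prolyl hydroxylase, rose (limma adjusted p = 7.52e-08, 0.000595, 8.22e-06, 6.22e-06 and 0.000884). Adm, which encodes adrenomedullin (-1.12 ± 1.49), Ddit4 (-0.78 ± 0.79), an inhibitor of mTORC1, Bnip3l (-0.65 ± 0.61), a mitophagy receptor, and Mxi1 (-0.48 ± 0.42), a Myc antagonist, fell (limma adjusted p = 0.00641, 0.000904, 0.000577 and 0.000509). Hif1a itself stood at -0.15 ± 0.35 and did not pass (0.167). The list's median was 0.36.

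In lymphoma 15, however, 15 of these 18 genes had their highest value, as did 10 of 10 members. Over all genes with complete values the share was 5.83%. With arrays scaled to the same spread, 14 of the 18 genes and 9 of the 10 members were highest there, against 4.53% of all genes. P4ha2 stood at 4.71 there, Ero1a at 4.69, Ndrg1 at 4.31, Ankrd37 at 3.65, Vegfa, the angiogenic growth factor, at 3.15, and Bnip3 at 2.66, although neither Ankrd37 nor Bnip3 nor P4ha2 passed over the 18 lymphomas (limma adjusted p = 0.730, 0.254 and 0.0911). The mean of the list without Hif1a was 2.52 in lymphoma 15 and between -0.47 and 0.89 in the other 17, with lymphoma 1, the second in the members' mean, also second here. Hif1a was at -0.16 in lymphoma 15. The part of oxygen supply, tumour size or handling of the tissue in this pattern was not tested, since no label gives them.

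Across the lymphomas, the mean of the hypoxia list correlated with Pgk1 (r = 0.83, permutation test, adjusted p = 0.00780), Aldoa (0.71, 0.00975), Pfkl (0.66, 0.0355), Pkm (0.70, 0.0374) and Ldha (0.71, 0.0421), with Benjamini-Hochberg adjustment over 130 relations of the 10 members with 13 measures. Only that of Aldoa also passed by rank (rho = 0.78, adjusted p = 0.0286), and for Pgk1 rho was 0.63 (0.203). Without the 2 lymphomas farthest from the median of the list, r was 0.72 for Aldoa, 0.53 for Pgk1, 0.52 for Ldha, 0.45 for Pfkl and 0.41 for Pkm. Within the 11 lymphomas with higher macrophage markers r was 0.81 for Aldoa, 0.48 for Pgk1, 0.36 for Pkm, 0.31 for Ldha and 0.14 for Pfkl. Within the other 7, which include lymphoma 15, it was 0.82, 0.87, 0.81, 0.93 and 0.84 in the same order. The difference between these sets of lymphomas was not tested. For Slc2a1 r was 0.78, which missed the threshold (permutation test, adjusted p = 0.0626), and 0.54 without the 2 farthest lymphomas. Its promoter and those of Pgk1, Ldha and Hk2, printed above, each hold ACGTG. The windows of Pfkl, Pfkp and Tpi1 hold no ACGTG, but those of Pfkl and Pfkp hold GCGTG. These genes were also highest in lymphoma 15, and a link between motifs and values was not tested.

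**Figure D4:**
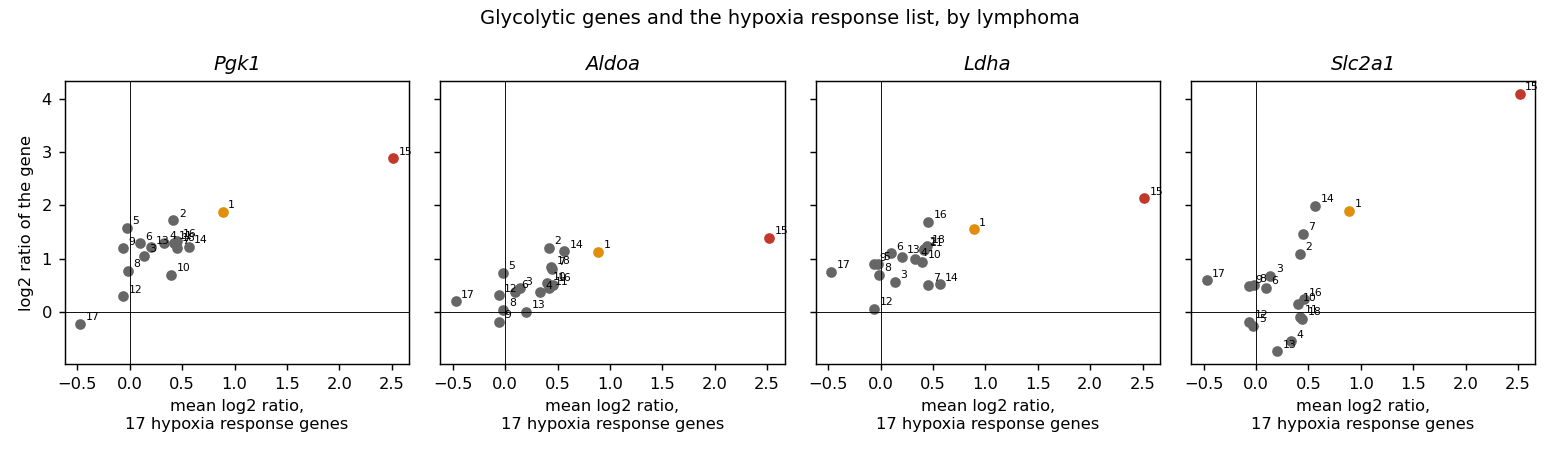
Log2 ratio of Pgk1, Aldoa, Ldha and Slc2a1 (y axis) against the mean log2 ratio of 17 hypoxia response genes (x axis), with 1 numbered point for each of 18 lymphomas. Lymphoma 15 (red) stands apart at a list mean of 2.52, followed by lymphoma 1 (orange) at 0.89.

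Other regulators and cell contents were set against the members in the same way. Myc was higher in the lymphomas (1.55 ± 0.66, limma adjusted p = 7.31e-08) and stood at 1.68 in lymphoma 15, near its mean, and its correlations with the members lay between -0.11 and 0.32, none passing (lowest adjusted p = 0.443). Fbp1, which runs the phosphofructokinase step backwards in gluconeogenesis, was 18.2-fold higher, and its correlations with the members lay between -0.29 and 0.30 (lowest adjusted p = 0.443). For 9 measured proliferation markers, of which 5 were higher and 1 lower, the correlations of the list mean with the members ranged from -0.20 to 0.41 (lowest adjusted p = 0.352). The adipocyte list mean ran against the members, with r between -0.62 and -0.38. Its relation to Aldoa passed by rank (rho = -0.76, permutation test, adjusted p = 0.0286) but not by Pearson's r (-0.62, 0.0731; -0.70 without the 2 farthest lymphomas). For thymic epithelium markers r lay between -0.58 and -0.05, none passing (lowest adjusted p = 0.174). For Hif1a r lay between -0.07 and 0.38. It ran from -0.77 to -0.40 within the 7 lymphomas with low macrophage markers and from -0.21 to 0.48 within the other 11. For erythroid markers r lay between -0.53 and -0.27, for T lineage -0.30 and 0.49 and for endothelium -0.46 and -0.11. It lay between -0.24 and 0.09 for muscle and between -0.004 and 0.56 for array spread. Over the 18 lymphomas none of these passed. Macrophage markers split the lymphomas into 7 with list means from -3.42 to -2.61 and 11 from -0.17 to 2.77, so no pooled value is given for them. Within the 7 the correlations with the members lay between -0.66 and -0.06, and within the 11 between -0.30 and 0.56. Lymphoma 15 is 1 of the 7, and without all 7 the members called higher numbered 7, with Hk2 at 0.48 and Slc2a1 at 0.34 no longer passing (limma adjusted p = 0.0607 and 0.240). In bulk tissue, fewer cells of a type and less RNA per cell cannot be told apart.

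Markers of the T lineage were near or below thymus: 5 of 8 measured fell and none rose, with Cd3e at 0.21 ± 0.78, Cd3d at -0.19 ± 0.98 and Thy1 at -1.32 ± 0.60. Their list mean was lowest in lymphoma 14 (-3.47), which also had the highest macrophage (2.77), striated muscle (3.37) and endothelial (2.49) means, and in which Slc2a1 was second highest at 1.997. The erythroid markers stood at a list mean of -1.86 in lymphoma 15 (5 measured, 3 lower and 1 higher over all lymphomas). The muscle list was at -1.11 there.

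Of 15 other glycolytic enzymes measured, mostly isozymes of other tissues, 5 rose and 5 fell, with a median of 0.08, which is near the shares and the median over all genes. Gpi1 and Eno1, the main forms of their steps in most tissues, were not analysed here. Pgam1, the phosphoglycerate mutase of most tissues (1.30 ± 0.70, 2.46-fold, highest in lymphoma 15 at 3.47), and Pfkm rose in 18 of 18 lymphomas (limma adjusted p = 1.16e-06 and 1.51e-07). Adpgk, an ADP-dependent glucokinase (0.80 ± 0.44), Aldoc and Gapdh (0.42 ± 0.53) rose as well (3.04e-06, 4.31e-05 and 0.00634). The decreases were those of Ldhb, the testis lactate dehydrogenase Ldhc (-1.44 ± 0.79), Hkdc1 (-0.79 ± 1.05), the neuronal enolase Eno2 (-0.62 ± 0.98) and Bpgm, the red cell bisphosphoglycerate mutase (-0.37 ± 0.58). Pgam2 and Eno3, the muscle isozymes, did not pass and were highest in lymphoma 11, where the mean of 9 muscle markers was 3.18.

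Transport and the exit of pyruvate moved unevenly. Slc16a3, the lactate exporter MCT4, had a mean of 2.50 ± 1.43 or 5.64-fold (limma adjusted p = 1.50e-06), was above thymus in 17 of 18 lymphomas and reached 5.15 in lymphoma 15. Bsg, the chaperone of lactate transporters (0.88 ± 0.67), and Slc2a8, an intracellular glucose transporter (1.23 ± 0.44), also rose (6.80e-05 and 1.70e-08). Slc2a3, the high-affinity glucose transporter of neurons and lymphocytes, rose 1.41-fold (0.49 ± 0.45, limma adjusted p = 0.000617), with probe means from -0.07 to 1.33. The difference Slc2a1 minus Slc2a3 was 0.16 ± 1.04 (95% interval from -0.35 to 0.68, adjusted p = 0.521 in the permutation test), and with the Slc2a3 probe of most values alone it was -0.67 (0.0458). Slc2a4, the insulin-responsive transporter of fat and muscle, fell by 3.52 (SD 1.89), where 7 of 7 adipocyte markers were lower with list means from -4.49 to 0.79. Only lymphoma 12 had Slc2a4 above thymus (0.62), and it alone had an adipocyte mean above 0. The part of fat in this change was not tested. Slc2a12 (-2.42 ± 1.18), Slc2a6 (-1.65 ± 1.14) and Slc16a7 (-0.93 ± 0.67) fell as well (limma adjusted p = 2.36e-07, 1.60e-05 and 3.45e-05). Of the 12 transporters, 5 rose and 4 fell.

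Of 7 genes for pyruvate entry into mitochondria none rose, and Mpc1, a subunit of the mitochondrial pyruvate carrier, fell by 0.95 (SD 0.38, n = 18) and was below thymus in 18 of 18 (limma adjusted p = 8.16e-08). The pyruvate dehydrogenase genes Pdha1 (-0.13 ± 0.51), Pdhb (0.12 ± 0.40), Dlat (-0.05 ± 0.40) and Pdhx (0.10 ± 0.28) did not pass. Neither did Pdp1 (-0.30 ± 0.65) or Dld (-0.23 ± 0.55). Among 8 regulators, Pdk3, a kinase that switches pyruvate dehydrogenase off, rose (0.55 ± 0.43, limma adjusted p = 0.000153) and Pdk2 did (0.27 ± 0.31, 0.00674), while Pdk4, the fasting-induced kinase of fat and muscle, fell by 3.02 (SD 2.31). Tigar, a bisphosphatase and known p53 target that lowers fructose 2,6-bisphosphate, fell by 0.46 (SD 0.59, limma adjusted p = 0.00684), and Pfkfb2 by 0.24 (SD 0.20). Pfkfb3, which makes fructose 2,6-bisphosphate, stood at 0.16 ± 0.69 and at 2.44 in lymphoma 15. Pfkfb4 stood at 0.22 ± 0.45 and at -0.08 in that lymphoma, and neither of these genes passed.

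In the pentose phosphate pathway, which branches off after hexokinase, 3 of 7 measured genes rose and 2 fell. Pgls (0.84 ± 0.49), Tkt (0.81 ± 0.52) and Pgd (0.78 ± 0.37) rose (limma adjusted p = 4.60e-06, 1.44e-05 and 6.32e-07), and Taldo1 (-0.36 ± 0.32) and Rpe (-0.38 ± 0.55) fell (0.000985 and 0.0158). Of 6 glycogen genes, Gys1, the glycogen synthase of muscle and most tissues (0.83 ± 0.76, 2.73 in lymphoma 15), and Pygm (0.58 ± 0.90) rose, and the liver phosphorylase Pygl (-2.42 ± 1.83) and Ugp2 (-0.34 ± 0.44) fell. Lymphoma 15 was the highest for 3 of 15 other glycolytic enzymes, 3 of 12 transporters, 3 of 8 regulators, 3 of 6 glycogen genes, 2 of 7 pentose phosphate genes and 0 of 7 pyruvate entry genes. Over all genes the share was 5.83%, so several of these lists also lay above it.

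**Figure D5:**
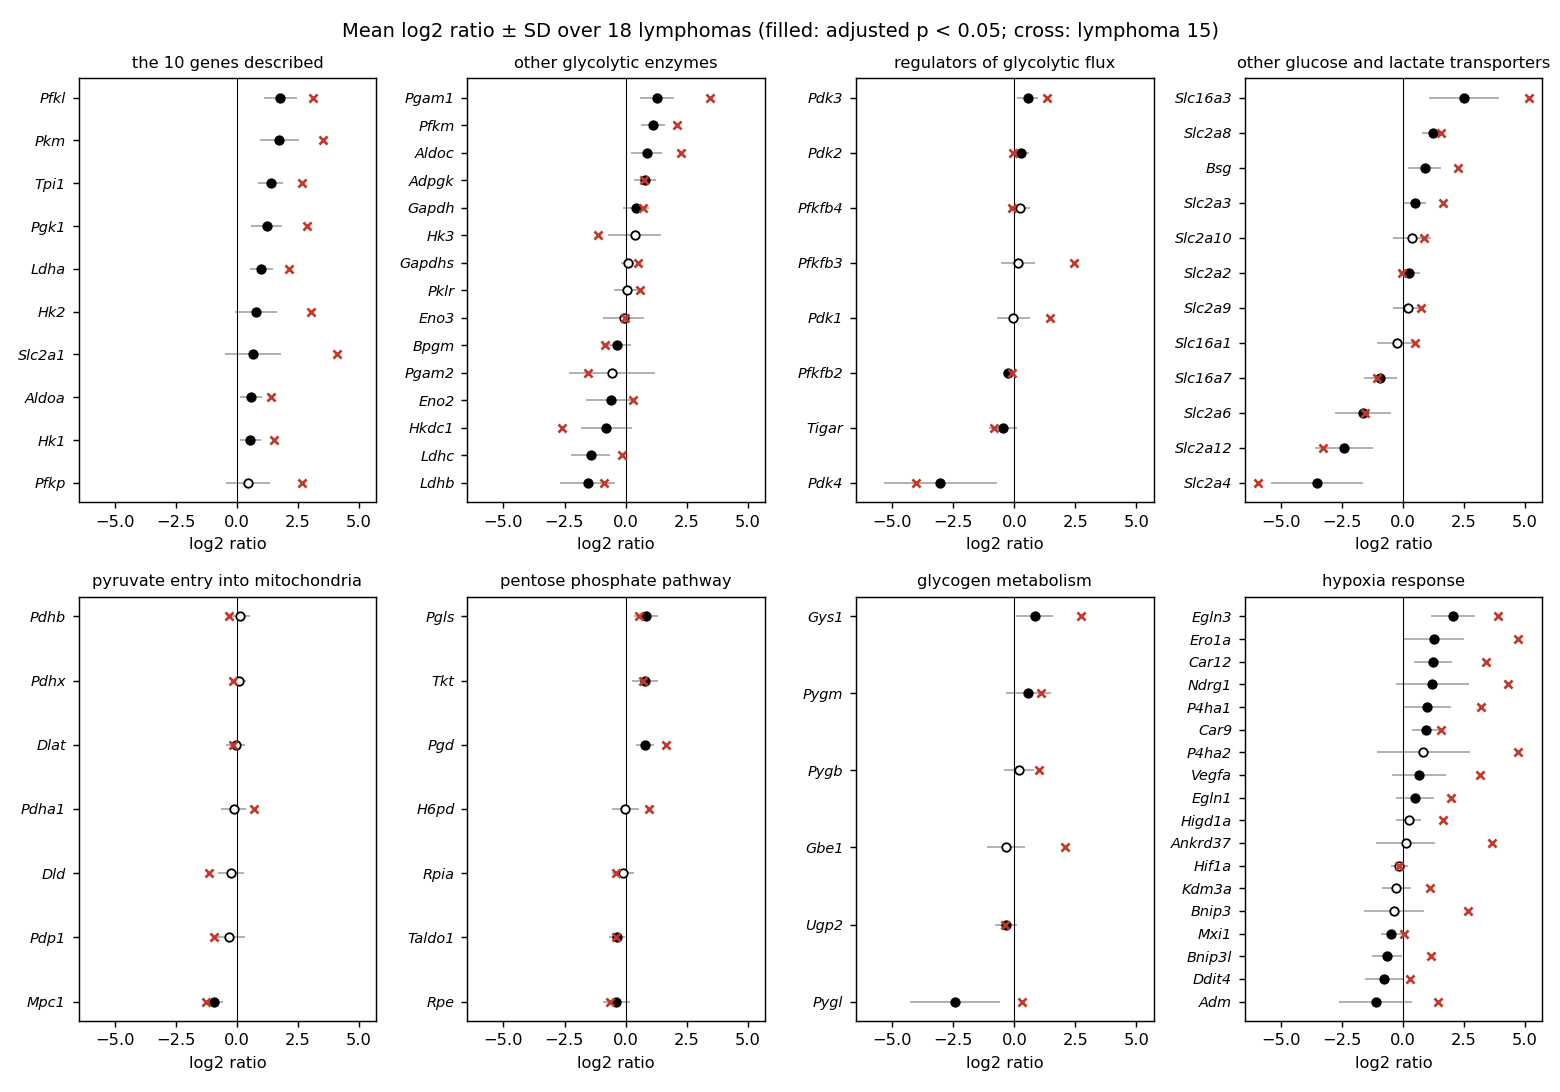
Mean log2 ratio ± SD over 18 lymphomas (x axis) for the genes of 8 lists (panels, y axis), with filled points passing limma at an adjusted p under 0.05, open points not passing, and red crosses at the value in lymphoma 15. Crosses lie right of the mean for all 10 members and for most hypoxia genes, but for 1 of 7 genes of the pyruvate entry list (Pdha1).

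The members lie on 7 chromosomes, and their ratios are set here beside those of their neighbours without a test. For each member, the median log2 ratio of the 10 genes before and the 10 after it on the chromosome lay between -0.19 (Pgk1, on the X) and 0.37 (Slc2a1, on chromosome 4). For Pfkl, Tpi1, Pgk1, Pkm and Ldha, none of the 20 neighbours had a mean above that of the member. For Hk2 and Pfkp 3 did, for Slc2a1 5, and for Hk1 and Aldoa 6. Of the neighbours of Slc2a1, 11 of 20 were called higher themselves, and of those of Aldoa 10 of 20 (medians 0.37 and 0.36). For the other members the count ran from 1 (Pgk1) to 8 (Hk2) of 20, and 29.9% of all genes were called higher. In lymphoma 15 alone, 1 neighbour of Aldoa and none of the other members' neighbours exceeded the member.

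Outside the lists, the genes with the pattern most like the mean of the members (each scaled to unit SD, Pearson's r over 18 lymphomas and 17001 genes, given as a description) were Pafah1b3 (r = 0.86), a subunit of an intracellular platelet-activating factor acetylhydrolase, Pcsk7 (0.86), a proprotein convertase, Grhpr (0.83), glyoxylate and hydroxypyruvate reductase, Faap20 (0.83), Tmem106c (0.83), Wbp2 (0.82), Mgarp (0.81) and 4932438H23Rik (0.78). All 8 were highest in lymphoma 15, which the choice favours, since the mean they were matched to is also highest there. Without lymphoma 15, Tmem106c kept the highest value at 0.81 and the others lay between 0.48 and 0.74. Their levels against thymus differed: Mgarp was at 2.77 ± 2.06 and Grhpr at 1.41 ± 0.79, while Pcsk7 was lower (-0.53 ± 0.40, limma adjusted p = 0.000121) and 4932438H23Rik did not pass (0.798).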

How the data were processed

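RNA of 18 lymphomas and a thymus reference was measured on 2-colour Agilent arrays with dye swaps. The authors deposited 1 log10 ratio per probe and lymphoma (base inferred, per the labels 1 sample each), and the sources used here do not state how signals were extracted and normalized or dye swaps combined. Array medians lay between -0.0114 and 0.0370 in deposited log10 units. Values were multiplied by 3.32 to log2, with no further scaling. Of 41175 probes, 31700 name 1 gene, 47 several and 9428 none. Probes with at least 14 of 18 values were averaged per gene (18147 genes, 37295 probes) and the ratio was tested against 0 (R 4.3.3, limma 3.58.1). The reference counts as 1 control, and its spread is not in the test. Differences and correlations used 100000 permutations (two-sided, Python 3.11.15). Errors are SD over lymphomas, and the number of arrays limits precision. The fit was tested on simulated data. Members and lists were chosen with earlier results of these data known. Named genes are the members, isozyme partners, Myc, Hif1a and Fbp1, and the 8 most alike genes. For each pathway list, up to 6 genes with the lowest adjusted p-values and those called against most of the list are named too. Others were named after their values were seen. Alternatives were other array scalings, presence filters, probe summaries, array weights, a trended robust fit and lymphomas left out.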

Additional observations from a re-analysis of the deposited data

How the results depend on the processing

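Members called higher numbered 7 to 10 over the alternatives and 8 to 10 with each lymphoma left out, and none was called lower under any of them. Of all genes, 5419 were higher, and 3556 when the 7 lymphomas with low macrophage markers were left out, a fit on fewer samples. Leaving out 1 lymphoma gave 5164 to 5591 higher and 4891 to 5321 lower. The log2 ratio of Slc2a1 lost its call with array weights (limma adjusted p = 0.0595) and without lymphomas 7, 12 and 14 (0.0867), and the log2 ratio of Pfkp gained one with array weights (0.0143), with 1 probe per gene (0.000879) and without those lymphomas (0.0290). With 1 probe per gene Hk1 stood at 0.89 and Pkm at 2.47. Under array centring, quantile normalization and scaling to one spread, the calls of the 10 members were those reported. The difference Hk2 minus Hk1 turned to -0.12 with 1 probe per gene and to -0.0015 without the 7 lymphomas, and ran from 0.14 to 0.32 with single lymphomas left out, never passing. The difference Slc2a1 minus Slc2a3 turned to -0.67 with 1 probe per gene or with probes complete on all arrays, which leave the same Slc2a3 probe, and to -0.029 without lymphomas 7, 12 and 14. The difference Aldoa minus Aldoc ran from -0.37 to -0.21 with single lymphomas left out and passed without lymphoma 14 (-0.37, permutation test, adjusted p = 0.0246). Of 45 member pairs, 32 were correlated, 28 without lymphomas 7, 12 and 14, 30 with arrays scaled to one spread, 8 by rank and 6 without lymphoma 15, the last and the scaling chosen after seeing the data. No paired analysis was possible because all lymphomas form 1 group. The array pair of lymphomas 11 and 16 correlated most, at 0.82.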
